A study of Mus musculus with 11 samples.

Results

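The 8 genes described here act in blood clotting and clot removal at the vessel wall: F3, Tfpi, Thbd, Procr, Pros1, F2r, Vwf and Plat. They were chosen by name as haemostasis genes of the endothelium. No measured value entered the rule, but earlier results of these data were known when the choice was made. The genes make up 8 of the 45804 genes listed in every library and 8 of the 15604 genes tested. RNA bound to ribosomes of endothelial cells was sequenced from adult C57BL/6 mice in 4 groups: GL261 tumour of Eltd1-/- mice (n = 2), GL261 tumour of wild type mice (n = 3), healthy brain of wild type mice (n = 3) and healthy brain of Eltd1-/- mice (n = 3). GL261 is a mouse glioma line, injected into the brain, and Eltd1, now named Adgrl4, encodes an adhesion receptor of endothelial cells. Mice of all groups carried eGFP-L10a, a ribosomal protein tagged with a green fluorescent protein, driven by the VE-cadherin promoter of endothelial cells, and tagged ribosomes were captured from dissected tissue with antibody-coated beads. Libraries were prepared from 3 mouse samples a group, per the labels' protocol, and the 2 libraries of knockout tumour given here were analysed. Levels are given in FPKM, a fragment count scaled to transcript length and to library size.

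Healthy endothelium holds blood fluid. Tissue factor, encoded by F3, starts the clotting cascade by binding factor VII, and the inhibitor encoded by Tfpi blocks that step. Thrombomodulin (Thbd) and the endothelial protein C receptor (Procr) turn thrombin towards activating protein C, which inactivates clotting factors with protein S (Pros1) as cofactor. Thrombin signals to the cell through its receptor PAR1 (F2r), von Willebrand factor (Vwf) tethers platelets to the vessel wall, and tissue plasminogen activator (Plat) generates the plasmin that dissolves fibrin.

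Of the 8 genes, 5 had a promoter window in the RefSeq table of build GRCm38.p6: F3, Procr, Pros1, F2r and Tfpi. The windows of F3, Procr and Pros1 are shown because these are the genes of which every tumour library lay above the median of the brain libraries. They were thus picked by their values, and the share of all genes that meet this rule is not given here. In all 3 the tissues overlapped, and none had an adjusted p under 0.05 between tumour and brain with all libraries fitted. Each is the 250 bases upstream of a RefSeq transcript start, read 5′ to 3′ on the plus strand, at chr3:121723287-121723536 for F3, chr2:155750967-155751216 for Procr and chr16:62854057-62854306 for Pros1. The window of Procr overlaps the first bases of the gene record, which starts upstream of that transcript. Capitals mark TGANTCA, the AP-1 motif, and GGGCGG, the GC box, on either strand.
F3: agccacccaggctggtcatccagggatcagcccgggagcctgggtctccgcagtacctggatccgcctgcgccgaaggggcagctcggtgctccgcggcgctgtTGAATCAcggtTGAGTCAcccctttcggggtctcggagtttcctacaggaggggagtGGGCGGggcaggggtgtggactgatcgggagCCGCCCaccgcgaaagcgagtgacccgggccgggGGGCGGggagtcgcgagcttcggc
Procr: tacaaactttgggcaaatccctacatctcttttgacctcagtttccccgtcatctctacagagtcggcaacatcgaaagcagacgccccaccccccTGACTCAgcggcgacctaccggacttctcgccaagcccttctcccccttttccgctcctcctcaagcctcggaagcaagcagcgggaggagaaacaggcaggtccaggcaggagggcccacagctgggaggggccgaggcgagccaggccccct
Pros1: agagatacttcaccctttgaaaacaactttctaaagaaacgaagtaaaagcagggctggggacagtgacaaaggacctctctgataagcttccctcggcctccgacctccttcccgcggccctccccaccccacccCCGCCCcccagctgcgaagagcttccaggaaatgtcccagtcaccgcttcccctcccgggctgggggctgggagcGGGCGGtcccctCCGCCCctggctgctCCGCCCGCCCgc
The F3 window held 2 matches to TGANTCA and 3 to GGGCGG, the Procr window 1 and 0, and the Pros1 window 0 and 5, of which the pair nearest the start overlap. Among 32851 promoter windows of the same length, 6.75% held at least 1 match to TGANTCA and 0.338% held 2 or more. For GGGCGG these shares were 32.7% and 16.7%. The shares are not matched for base composition. G and C made up 70.0% of the F3 window, 61.6% of that of Procr and 64.4% of that of Pros1, beside a median of 52.4% over all windows. Of the windows not shown, that of F2r held 1 match to each motif. The 2 windows of Tfpi each held 0 matches to TGANTCA and 1 to GGGCGG. These matches describe the sequence and not binding. Vwf, Thbd and Plat had no entry in the table.

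All 24 endothelial markers were detected, and their summed level was 2261 to 3068 FPKM in brain and 521 to 1242 FPKM in tumour. Neuron markers summed to 4027 to 5535 FPKM in brain and 96.5 to 2751 FPKM in tumour, and astrocyte markers to 1056 to 1685 and 293 to 766 FPKM. Microglia and macrophage markers ran the other way, at 46.8 to 67.9 FPKM in brain and 158 to 477 FPKM in tumour, with all 14 markers detected in tumour. Platelet and megakaryocyte markers summed to at most 7.96 FPKM in brain and 9.60 FPKM in tumour, and 6 of the 10, Pf4, Ppbp, Gp9, Gp6, Treml1 and Tubb1, were listed at 0 in every library. Adgrl4 stood at 5.82 to 23.6 FPKM in the 5 knockout libraries and 27.4 to 192 FPKM in the 6 wild type libraries. Wild type tumour replicate 2 stood apart, with 42.7% of the tested genes at 0 against 7.79% to 25.7% in the other libraries, and with 4 of the 8 haemostasis genes at 0: Thbd, F2r, Tfpi and Plat. A value of 0 can be a failed estimate in such files, and where leaving this library out changed a call, turned a direction or moved a wild type difference by over 1.5 times, the value without it is given.

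Thbd was the haemostasis transcript that fell in tumour. In wild type mice 1 of the 8 genes passed, Thbd, against 19.4% of all genes tested (11.7% lower, 7.7% higher), and in knockout mice 0 of 8 passed, against 7.08%. In the mean of both genotypes 1 of 8 passed, again Thbd, against 30.2%. With 8 genes, counts of 0 or 1 are too small to tell the share that passed from that of all genes, and this was not tested. The median change of the 8 genes was -0.53 on the log2(FPKM + 1) scale in wild type and 0.16 in knockout, beside -0.26 and -0.18 over all tested genes. The wild type median turned to 0.12, beside -0.15 over all genes, without wild type tumour replicate 2, so the difference in sign between the genotypes rests on that library. With ribosome-bound RNA pooled over cells, fewer endothelial cells and less RNA per cell cannot be told apart. Markers of neurons, astrocytes, and microglia and macrophages were also detected, at sums that differed between the tissues. Their part in these changes was not tested. All tests are limma fits with Benjamini-Hochberg adjustment over the 15604 genes, and log2 changes are differences of mean log2(FPKM + 1), which understate the change of low genes.

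**Figure D1:**
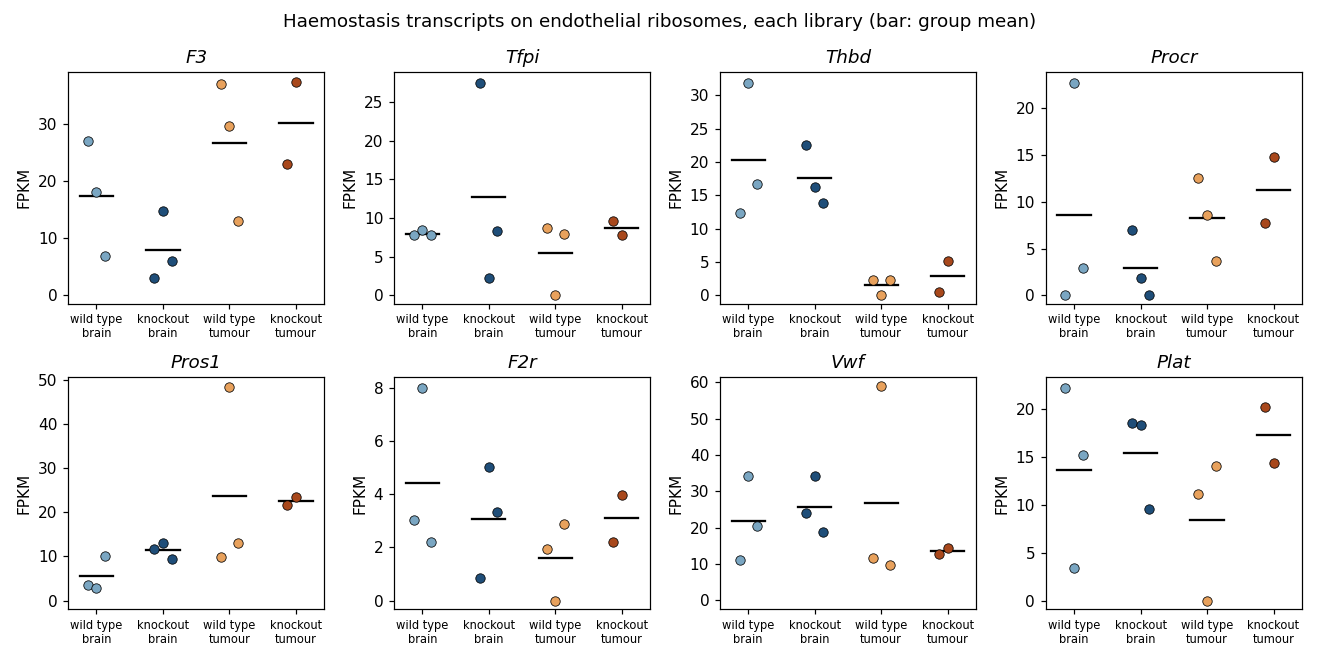
FPKM of the 8 haemostasis genes in each of the 11 libraries, grouped by genotype and tissue, with a bar at each group mean and a separate linear axis for each gene. Thbd is the gene whose 5 tumour libraries, at 0 to 5.21 FPKM, all lie below the 6 brain libraries, at 12.3 to 31.9 FPKM.

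F3, the gene of tissue factor, is a protein-coding gene at chr3:121723537-121735052 (GRCm38). It stood at 27.1, 18.2 and 6.96 FPKM in wild type brain and at 2.98, 14.8 and 5.95 FPKM in knockout brain. In tumour it stood at 37.0, 29.7 and 13.1 FPKM in wild type mice and at 23.1 and 37.4 FPKM in knockout mice. All 5 tumour libraries lay above the brain median of 10.9 FPKM, 3 lay above the highest brain library, and the tissues overlapped. The tumour mean was 2.22-fold the brain mean. Astrocyte and neuron markers were detected in the same libraries, and which cells the F3 transcripts came from was not tested. The log2 difference was 0.65 (SE 0.66, adjusted p = 0.52) in wild type, 2.00 (SE 0.74, adjusted p = 0.12) in knockout and 1.32 (SE 0.49, adjusted p = 0.063) in the mean of both genotypes. The last of these did not pass, and it passed when any of 3 libraries was left out, with 1.54 (adjusted p = 0.035) without wild type tumour replicate 3, 1.52 (adjusted p = 0.046) without wild type brain replicate 1 and 1.59 (adjusted p = 0.036) without knockout brain replicate 2.

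Tfpi, the inhibitor of the tissue factor complex, lies at chr2:84432855-84476775. Its level in wild type brain was close in all libraries, at 7.79, 8.44 and 7.76 FPKM. In knockout brain it was 27.5, 2.21 and 8.35 FPKM, so this group held both the highest brain value and the lowest. In tumour Tfpi stood at 8.70, 0 and 7.91 FPKM in wild type and at 9.59 and 7.75 FPKM in knockout. Apart from the library listed at 0, the 4 tumour values lay within the brain range. The log2 difference of tumour and brain was -1.02 (SE 0.95, adjusted p = 0.49) in wild type and 0.02 (SE 1.07) in knockout, and the wild type value became 0.05 (SE 0.77) without wild type tumour replicate 2.

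Thbd encodes thrombomodulin, the thrombin-binding receptor of the protein C pathway, at chr2:148404471-148408188. It stood at 12.3, 31.9 and 16.7 FPKM in wild type brain and at 22.5, 16.3 and 13.9 FPKM in knockout brain. In tumour it stood at 2.36, 0 and 2.26 FPKM in wild type and at 0.484 and 5.21 FPKM in knockout. The tissues did not overlap, which was also so for 12.3% of all tested genes with lower tumour values, and the brain mean of 18.9 FPKM was 9.18-fold the tumour mean of 2.06 FPKM, and 7.34-fold without wild type tumour replicate 2. In wild type the log2 difference was -3.16 (SE 0.73, 95% interval -4.74 to -1.57, adjusted p = 0.013). In knockout it was -2.58 (SE 0.81, 95% interval -4.36 to -0.81, adjusted p = 0.078), which did not pass, and the mean of both genotypes was -2.87 (SE 0.54, adjusted p = 0.0030).

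The fall of Thbd in wild type passed in all 11 fits that left out 1 library, with log2 differences from -3.45 to -2.58 and adjusted p from 0.011 to 0.048. At the level of Thbd, 37.0% of genes with a mean within 2-fold of its own were listed at 0 in wild type tumour replicate 2. Without that library the difference was -2.58 (adjusted p = 0.031) in wild type and -2.58 (adjusted p = 0.034) in knockout, so both passed. The knockout difference uses no wild type library and was unchanged. Its SE went from 0.81 to 0.67, since all groups share 1 estimate of the spread. The wild type call was lost when only the wild type libraries were fitted (-3.16, adjusted p = 0.076) and when wild type tumour replicates 2 and 3 were both left out (-2.56, adjusted p = 0.086), while the mean of both genotypes passed with those libraries left out (-2.57, adjusted p = 0.0092). The endothelial markers were lower in tumour in the same libraries. In wild type 11 of 24 fell, against 11.7% of all genes, with a median log2 difference of -1.68. In knockout 4 of 24 fell, against 7.08% of all genes passing either way, with a median of -1.32. The part of these markers in the fall of Thbd was not tested in the model.

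Procr encodes the receptor that presents protein C to thrombomodulin, at chr2:155751125-155755478. It was the most uneven of the 8 genes in brain, at 0, 22.8 and 2.92 FPKM in wild type and at 7.00, 1.90 and 0 FPKM in knockout. The tumour libraries held 12.5, 8.61 and 3.70 FPKM in wild type and 7.74 and 14.8 FPKM in knockout. Every tumour library lay above the brain median of 2.41 FPKM and below the highest brain library. The log2 difference was 0.90 (SE 1.10, adjusted p = 0.60) in wild type, 2.05 (SE 1.23, adjusted p = 0.33) in knockout and 1.47 (SE 0.82, adjusted p = 0.20) in their mean. The mean value passed without wild type brain replicate 2, at 2.07 (adjusted p = 0.048), and that library holds the single high brain value. At this gene's level, 21.7% of genes were at 0 in wild type brain replicate 1 and 5.63% in knockout brain replicate 3, the libraries in which Procr is listed at 0.

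Pros1 encodes protein S, the cofactor of activated protein C, at chr16:62854307-62929346. It stood at 3.47, 2.92 and 10.0 FPKM in wild type brain and at 11.6, 12.9 and 9.52 FPKM in knockout brain. In tumour it stood at 9.80, 48.4 and 12.9 FPKM in wild type and at 21.8 and 23.5 FPKM in knockout. All 5 tumour libraries lay above the brain median of 9.78 FPKM, but 2 wild type tumour libraries lay inside the brain range. The tumour mean was 2.77-fold the brain mean. The log2 difference was 1.75 (SE 0.64, adjusted p = 0.074) in wild type, 0.95 (SE 0.71, adjusted p = 0.45) in knockout and 1.35 (SE 0.48, adjusted p = 0.052) in their mean, none of which passed. Pros1 was highest in wild type tumour replicate 2, and without it the wild type difference was 1.09 (adjusted p = 0.20). The mean of both genotypes passed at 1.56 (adjusted p = 0.038) without wild type tumour replicate 1, at 1.47 (adjusted p = 0.044) without wild type tumour replicate 3 and at 1.58 (adjusted p = 0.033) without wild type brain replicate 3.

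F2r encodes PAR1, the receptor that thrombin cleaves on the cell surface, at chr13:95601780-95618466. Its mean over all libraries was the lowest of the 8 genes, at 3.03 FPKM. It stood at 3.01, 7.99 and 2.21 FPKM in wild type brain and at 0.863, 5.03 and 3.31 FPKM in knockout brain, and at 1.92, 0 and 2.86 FPKM in wild type tumour and 2.196 and 3.97 FPKM in knockout tumour. The groups overlapped throughout. The log2 difference of tumour and brain was -1.12 (SE 0.73, adjusted p = 0.31) in wild type and 0.13 (SE 0.82) in knockout. At this level 71.9% of genes were at 0 in wild type tumour replicate 2, and the wild type difference without that library was -0.54 (adjusted p = 0.64).

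Vwf, the platelet-tethering protein of endothelial storage granules, lies at chr6:125552948-125686679. It stood at 11.0, 34.4 and 20.4 FPKM in wild type brain and at 24.0, 34.2 and 18.8 FPKM in knockout brain. In tumour it stood at 11.7, 59.0 and 9.90 FPKM in wild type and at 12.8 and 14.5 FPKM in knockout. The single tumour value of 59.0 FPKM, in wild type tumour replicate 2, was the highest of all, and the other 4 tumour libraries lay below the brain median of 22.2 FPKM. The log2 difference in wild type was -0.04 (SE 0.65, adjusted p = 0.98) with that library and -0.83 (SE 0.50, adjusted p = 0.30) without it. In knockout it was -0.82 (SE 0.73, adjusted p = 0.53).

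Plat, the plasminogen activator released by endothelium, lies at chr8:22757722-22782848. It stood at 22.2, 3.43 and 15.1 FPKM in wild type brain and at 18.5, 18.3 and 9.50 FPKM in knockout brain. The tumour libraries held 11.2, 0 and 14.1 FPKM in wild type and 20.2 and 14.3 FPKM in knockout, and all but the library listed at 0 lay inside the brain range. The log2 difference was -1.06 (SE 0.97, adjusted p = 0.48) in wild type, 0.19 (SE 0.67) in the same comparison without wild type tumour replicate 2, and 0.19 (SE 1.09) in knockout.

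**Figure D2:**
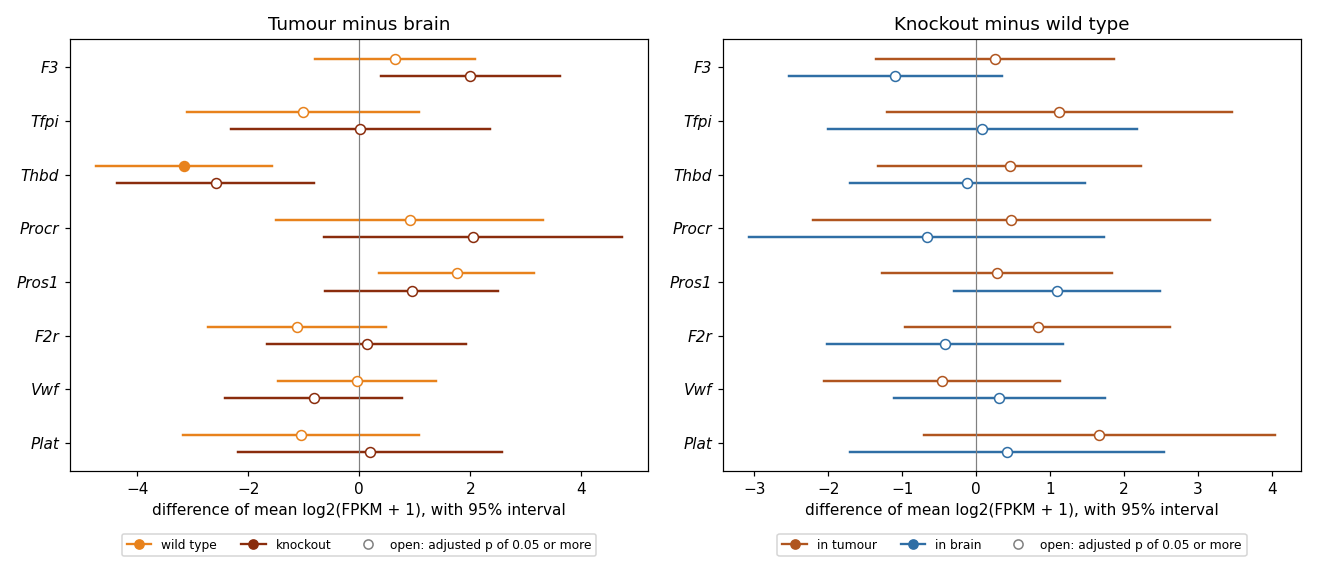
Difference of mean log2(FPKM + 1) for the 8 haemostasis genes with its 95% interval, between tumour and brain (left, in wild type and in knockout) and between knockout and wild type (right, in tumour and in brain), with filled points where the limma adjusted p was under 0.05. The single filled point is Thbd in wild type, at -3.16, and every interval of the genotype comparisons crosses 0.

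Loss of Eltd1 did not detectably change any of the 8 genes. By limma 0 of 8 passed between knockout and wild type in tumour, against 0.0192% of all genes tested, and 0 of 8 in brain, against 0.00641%, and 0 of 8 had an unadjusted p under 0.05 in either tissue, against 3.11% of all genes in tumour and 4.35% in brain. The mean of both tissues also gave 0 of 8, against 0.00641%. The targeted gene Adgrl4 did not pass by limma either. Its log2 difference was -2.78 (adjusted p = 0.90) in tumour, -2.46 in brain and -2.62 (adjusted p = 0.31) in the mean of both tissues. The unadjusted p of Adgrl4 was 0.0018 in tumour and 0.0019 in brain. A count of 0 passing genes therefore does not show that the 8 genes were unchanged. In tumour the smallest p was 0.15, for Plat, with a log2 difference of 1.67 (SE 1.09, 95% interval -0.71 to 4.04). Without wild type tumour replicate 2 the value was 0.41 (SE 0.74) for Plat, and it turned to -0.12 for Thbd and to 0.32 for Vwf, which stood at -0.47 with it. In brain the smallest p was 0.11, for Pros1, higher in knockout by 1.09 (SE 0.64, 95% interval -0.31 to 2.48), followed by F3 at -1.10 (SE 0.66, 95% interval -2.54 to 0.34). For Thbd the genotype difference was 0.45 (95% interval -1.32 to 2.23) in tumour and -0.12 (95% interval -1.71 to 1.47) in brain. The intervals spanned 3.11 to 5.37 log2 units in tumour and 2.79 to 4.81 in brain, with lower ends from -2.21 to -0.71 and upper ends from 1.13 to 4.04 in tumour, and from -3.07 to -0.31 and from 0.34 to 2.54 in brain. The test of whether the tumour effect differed between genotypes also called 0 of 8 genes, against 0.00641%, with 0 at an unadjusted p under 0.05, against 3.18%. That test gave 0.57 (SE 1.09) for Thbd, so the passing change in wild type and the change that missed the threshold in knockout were not shown to differ.

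The order of the 8 genes by mean FPKM, a scale that corrects for transcript length, differed between brain and tumour. In brain the highest was Vwf, at 21.9 ± 11.7 FPKM (SD, n = 3) in wild type and 25.7 ± 7.82 FPKM in knockout, followed by Thbd, at 20.3 ± 10.3 and 17.6 ± 4.46 FPKM. In tumour Thbd was the lowest of the 8 in both genotypes, at 1.54 ± 1.33 FPKM (SD, n = 3) in wild type and 2.85 ± 3.34 FPKM (SD, n = 2) in knockout. Among all tested genes Thbd moved from percentile 64.2 in wild type brain and 61.6 in knockout brain to percentile 21.1 and 26.4 in the tumours of the same genotypes, and to 24.0 in wild type tumour without replicate 2. F3 was highest in knockout tumour, at 30.3 ± 10.2 FPKM, and in wild type tumour F3 stood at 26.6 ± 12.3 FPKM and Vwf at 26.9 ± 27.9 FPKM. Without wild type tumour replicate 2, which holds the single high value of Vwf, these means were 25.05 FPKM for F3 and 10.8 FPKM for Vwf. Neighbours in these orders mostly lay within 1 SD of each other, and their order was not tested. The summed FPKM of the 8 genes was 66.7 to 146 in tumour and 69.3 to 130 in brain, so their total overlapped between the tissues.

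The summed level of the endothelial markers differed between the tissues, so each gene was also set against the mean log2(FPKM + 1) of the 24 endothelial markers in its own library. On this scale 7 of 8 genes had a higher mean in tumour than in brain, beside 86.2% of all tested genes, and the median shift of all tested genes was 1.45. F3 and Pros1 stood higher in every tumour library than in every brain library, as did 36.4% of tested genes. F3 ran from -0.15 to 1.12 in tumour and from -4.31 to -0.95 in brain, and Pros1 from -0.83 to 1.81 and from -3.79 to -2.33. Thbd was the 1 gene of the 8 with a lower mean in tumour, with shifts of -1.32 in wild type and -1.13 in knockout. Its values relative to the markers ran from -4.14 to -2.01 in tumour and from -2.08 to -0.72 in brain and so overlapped, and 0 of the 8 genes stood lower in every tumour library on this scale, as did 0.34% of tested genes. With a pseudocount of 0.1 the wild type shift of Thbd was -2.40 and that of F2r turned from 0.72 to -0.10. Without wild type tumour replicate 2 the wild type shift of Thbd was -0.84 and that of F2r 1.20. These shifts are descriptions without a test.

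**Figure D3:**
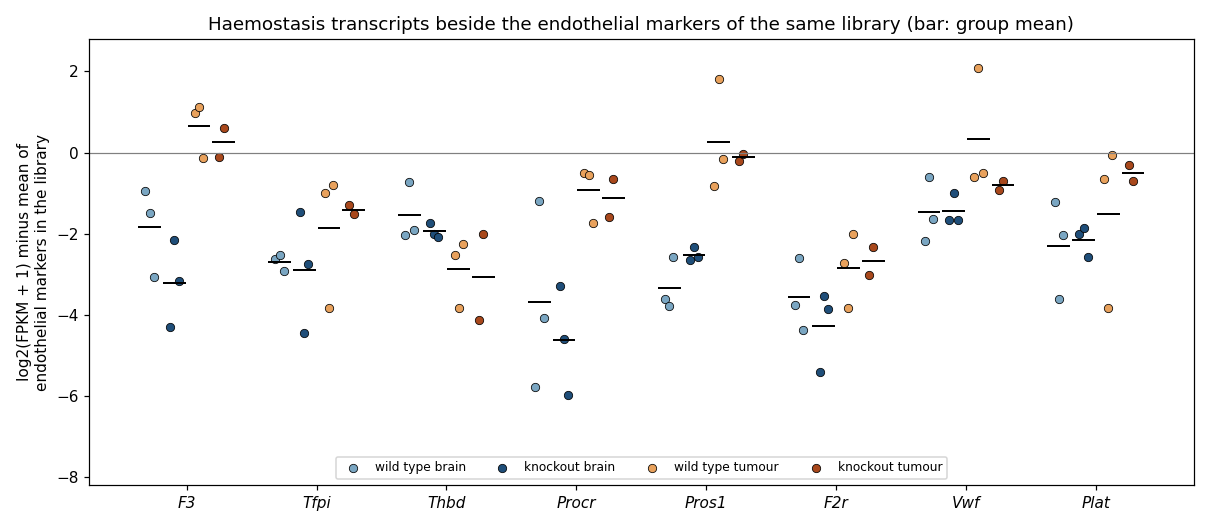
Log2(FPKM + 1) of each haemostasis gene minus the mean of the 24 endothelial markers in the same library, 1 point per library, coloured by group, with a bar at each group mean and a line at 0. F3 and Pros1 lie higher in all 5 tumour libraries than in all 6 brain libraries, while Thbd lies lower on average, by 1.32 in wild type and 1.13 in knockout.

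Across the 11 libraries the 8 genes did not move as a block. The Pearson correlations of log2(FPKM + 1) over the 28 pairs had a median of -0.02 and ran from -0.74, between Thbd and Pros1, to 0.70, between Tfpi and Plat. The last fell to 0.01 without wild type tumour replicate 2, in which both genes are listed at 0, while Thbd and Pros1 stood at -0.60 without it. Leaving that library out also raised Vwf and Thbd from 0.10 to 0.77 and turned F2r and Plat from 0.41 to -0.61. The tested genes most like Thbd over the 11 libraries, among 13737 compared, were Mff (r = 0.98), Kcnd3 (r = 0.98) and Slc25a14 (r = 0.97). Those most like F3 were Daxx (r = 0.94), Ddx49 (r = 0.91) and Morc2a (r = 0.90), and those most like Pros1 were Adcy7 (r = 0.96), Prdx1 (r = 0.95) and Aldh1a3 (r = 0.94). Vwf was most like Slc30a9 (r = 0.96), Procr like Mcat (r = 0.95), F2r like Ephb3 (r = 0.95), Tfpi like Mrps21 (r = 0.95) and Plat like Ndufb2 (r = 0.98). The libraries share tissue and depth differences, and the highest of many correlations is high by selection, so these are given as descriptions.

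The 7 lists of partner genes held 68 genes, of which 43 were tested. Of the other 25, 16 were listed at 0 in all libraries, among them Proc, Serpinc1, Plg and the 3 fibrinogen genes Fga, Fgb and Fgg, which the liver makes, and 9 had low values. In the mean of both genotypes 12.6% of all tested genes rose and 17.6% fell, with a median of -0.25, and 8.73% lay higher in every tumour library than in every brain library. In the same mean 16 of 24 endothelial markers fell and 0 rose, with a median of -1.44. Of the other lists, 9 of 10 neuron markers and 6 of 8 oligodendrocyte markers fell. Of 10 astrocyte markers 6 fell and 1 rose, and 10 of 14 microglia and macrophage markers rose. The part of these cell types in the rises and falls of the partner genes was not tested. With only the wild type libraries fitted, Axl was the 1 partner gene, of the 9 named by rule that passed in wild type, that still passed, and the other 8 had adjusted p from 0.053, for Mcfd2, to 0.20, for Entpd1. Among these, adjusted p was 0.059 for Hs3st1, 0.059 for Gas6 and 0.088 for Serpine2.

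Among the receptors of protein S and its relative Gas6, Axl rose and Gas6 fell in both genotypes. Axl, a receptor tyrosine kinase, stood at 16.7 ± 11.5 FPKM (SD, n = 3) in wild type brain and 175 ± 58.9 FPKM in wild type tumour, a log2 difference of 3.49 (SE 0.48, adjusted p = 0.0010), and the difference in knockout was 3.56 (SE 0.54, adjusted p = 0.0030). Gas6, the ligand related to protein S, went from 42.6 ± 13.7 to 5.89 ± 4.63 FPKM in wild type (-2.81, adjusted p = 0.0063) and from 34.9 ± 12.9 to 5.75 ± 1.82 FPKM in knockout (-2.37, adjusted p = 0.039). Neither gene overlapped between tumour and brain, which was so for 8.73% of all tested genes in the direction of Axl and 12.3% in that of Gas6. Tyro3, a receptor of the same family, fell in wild type, from 34.0 ± 5.98 to 6.50 ± 7.59 FPKM (-2.95, adjusted p = 0.033). It was listed at 0 in wild type tumour replicate 2, and its knockout difference of -1.70 (adjusted p = 0.30) did not pass. Of the 4 genes of this list, 1 rose and 2 fell in wild type, and 1 rose and 1 fell in knockout, against 7.7% of all genes rising and 11.7% falling in wild type and 7.08% passing either way in knockout. The list median was -1.97 and -1.25, beside -0.26 and -0.18 over all genes, and the same 3 genes passed in the mean of both genotypes, though Tyro3 not without knockout tumour replicate 1 (-1.86, adjusted p = 0.098). Axl in knockout missed the threshold without knockout tumour replicate 1 (3.57, adjusted p = 0.054). Gas6 in knockout missed it in 6 of 11 fits that left out 1 library (log2 -2.65 to -2.09, adjusted p up to 0.21) and Tyro3 in wild type in 5 of 11 (-3.87 to -1.87, adjusted p up to 0.085), among them the fit without wild type tumour replicate 2 (-1.87, adjusted p = 0.061). Microglia and macrophage markers were higher in tumour in every library, and their part in the rise of Axl was not tested.

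Of the partners and storage-granule genes of Vwf, 1 of 7 tested rose and 0 fell in each genotype, against 7.7% of all genes rising in wild type and 7.08% passing in knockout. It was Cd63, a membrane protein of these granules and of lysosomes, at 16.5 ± 10.8 FPKM in wild type brain and 46.9 ± 8.84 FPKM in wild type tumour (1.65, adjusted p = 0.037), and at 7.78 ± 0.816 and 66.4 ± 6.16 FPKM in knockout (2.94, adjusted p = 0.0091). The wild type call of Cd63 held in 1 of 11 fits that left out 1 library (log2 1.10 to 2.11, adjusted p up to 0.097), and the knockout call in 9 of 11, with adjusted p of 0.12 and 0.079 without knockout tumour replicates 1 and 2. Stxbp5, which binds the secretion machinery of granules, had a log2 difference of -1.63 (adjusted p = 0.057) in wild type and -1.44 (adjusted p = 0.17) in knockout, and it fell in the mean of both genotypes (-1.54, adjusted p = 0.016). Unc13d, a priming factor of granule release, had 0.87 (adjusted p = 0.38) and 2.57 (adjusted p = 0.056), and it rose in the mean (1.72, adjusted p = 0.021). So 2 of 7 rose and 1 fell in the mean of both genotypes, against 12.6% and 17.6% of all genes. The call of Stxbp5 was lost without knockout tumour replicate 1 (-1.33, adjusted p = 0.084) and with upper quartile scaling (-1.37, adjusted p = 0.054), and that of Unc13d without knockout tumour replicate 2 (1.53, adjusted p = 0.087). In knockout, Unc13d was past the threshold with wild type tumour replicate 2 left out (adjusted p = 0.042), with an unchanged difference and an SE of 0.72 in place of 0.73. Rab3d, a small GTPase of secretory granules, had -2.82 (adjusted p = 0.051) and -0.34 (adjusted p = 0.88), and the first was -1.70 (adjusted p = 0.13) without that library. The list median was 0.31 in wild type, 1.05 without wild type tumour replicate 2, and -0.0045 in knockout.

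Of the 4 anticoagulant genes tested, 2 fell in wild type, against 11.7% of all genes, and 0 passed in knockout, against 7.08%, while 2 fell in the mean of both genotypes, against 17.6%. Hs3st1, the enzyme that makes the antithrombin-binding site of heparan sulfate, stood at 35.9 ± 27.7 FPKM (SD, n = 3) in wild type brain and 1.27 ± 1.75 FPKM in wild type tumour, a log2 difference of -4.05 (SE 0.71, adjusted p = 0.0038). In knockout it stood at 38.3 ± 8.65 and 4.97 ± 3.88 FPKM (-2.86, SE 0.79, adjusted p = 0.053). With wild type tumour replicate 2 left out this difference was unchanged, its SE was 0.71, and it was past the threshold (adjusted p = 0.028). Hs3st1 fell in the mean of both genotypes (-3.46, adjusted p = 0.00090). Like Thbd and 12.3% of all tested genes, Hs3st1 lay lower in every tumour library than in every brain library, with a brain mean 13.5-fold the tumour mean. The other gene that fell was Serpind1, heparin cofactor II, which stayed under the level set for naming and is named after its values were seen. With wild type tumour replicate 2 left out, 1 of the 4 fell in wild type and 1 in the mean of both genotypes. Anxa5, which shields phosphatidylserine surfaces, had 0.71 (adjusted p = 0.16) and 0.52 (adjusted p = 0.43).

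Of the 5 enzymes that restrain platelets, 1 fell in wild type, against 11.7% of all genes, and 0 passed in knockout, against 7.08%, while 1, another, fell in the mean of both genotypes, against 17.6%. Entpd1, which breaks down extracellular ADP, stood at 71.8 ± 53.8 FPKM in wild type brain and 12.9 ± 11.2 FPKM in wild type tumour (-3.05, adjusted p = 0.049), and had a difference of -0.46 (adjusted p = 0.84) in knockout. Its call held in 2 of 11 fits that left out 1 library and was -1.60 (adjusted p = 0.060) without wild type tumour replicate 2, in which it is listed at 0. Nos3, the endothelial nitric oxide synthase, stood at 6.41 to 11.8 FPKM in tumour and 12.96 to 40.05 FPKM in brain with no overlap, as did 12.3% of all genes in that direction. Its log2 differences of -1.36 (adjusted p = 0.088) in wild type and -1.22 (adjusted p = 0.22) in knockout did not pass, and it fell in the mean of both genotypes (-1.29, adjusted p = 0.028). That call held in 5 of 11 fits that left out 1 library (-1.46 to -1.07, adjusted p up to 0.12) and was lost with upper quartile scaling (-1.14, adjusted p = 0.077). Ptgis, the prostacyclin synthase, had -0.58 (adjusted p = 0.77) and -2.37 (adjusted p = 0.29), and Ptgs1, the cyclooxygenase upstream of it, -0.40 (adjusted p = 0.80) and 0.86 (adjusted p = 0.66). The wild type values became -1.82 (adjusted p = 0.27) for Ptgis and -1.47 (adjusted p = 0.20) for Ptgs1 when wild type tumour replicate 2 was left out.

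Among the thrombin receptors other than F2r and the G proteins they use, 0 of 5 tested genes passed in either genotype, against 19.4% of all genes in wild type and 7.08% in knockout. For the mean of both genotypes 1 of 5 fell, against 17.6%: F2rl1, which encodes the receptor PAR2, at -1.18 (adjusted p = 0.033), named after its values were seen. Gna13 had a log2 difference of 1.05 (adjusted p = 0.080) in wild type and 0.46 (adjusted p = 0.56) in knockout, Gnaq -0.97 (adjusted p = 0.31) and -1.61 (adjusted p = 0.19), and Gna11 -0.54 (adjusted p = 0.41) and -1.14 (adjusted p = 0.17). The wild type values of Gnaq and Gna11 without wild type tumour replicate 2 were -1.49 (adjusted p = 0.15) and -0.9998 (adjusted p = 0.081), and with that library left out both passed in the mean of both genotypes, at -1.55 (adjusted p = 0.026) and -1.07 (adjusted p = 0.0090).

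Of the coagulation factors and the genes that process them, 2 of 8 fell in wild type and 0 rose, against 11.7% and 7.7% of all genes, 0 passed in knockout, against 7.08%, and 1 fell in the mean of both genotypes, against 17.6%. Mcfd2, which carries factors V and VIII out of the endoplasmic reticulum, fell from 59.2 ± 19.9 to 14.6 ± 3.88 FPKM in wild type (-1.93, adjusted p = 0.0079) and had 0.17 (adjusted p = 0.86) in knockout. Its fall in the mean of both genotypes (-0.88, adjusted p = 0.042) held in 3 of 11 fits that left out 1 library (adjusted p up to 0.14) and was lost with upper quartile scaling (-0.72, adjusted p = 0.18). Its partner Lman1 had -1.09 (adjusted p = 0.55) and 0.97 (adjusted p = 0.70), the first of which was 0.72 without wild type tumour replicate 2. Vkorc1l1, a vitamin K epoxide reductase, fell in wild type (-1.36, adjusted p = 0.039) and had -0.38 (adjusted p = 0.66) in knockout, a call that held in 2 of 11 fits without 1 library (adjusted p up to 0.10). Vkorc1, its paralog, had 1.66 (adjusted p = 0.37) and -0.17 (adjusted p = 0.96), and F8, factor VIII, 0.55 (adjusted p = 0.70) and 1.18 (adjusted p = 0.51). Without wild type tumour replicate 2 the wild type values were 3.12 (adjusted p = 0.058) for Vkorc1 and 1.16 (adjusted p = 0.44) for F8, and Vkorc1l1 passed in the mean of both genotypes (-0.90, adjusted p = 0.035), which it missed with all libraries (-0.87, adjusted p = 0.051).

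Beside Plat, 1 of 10 fibrinolysis genes fell in wild type, against 11.7% of all genes, and 0 passed in knockout, against 7.08%. The mean of both genotypes had 2 that rose, Plau and Anxa2, and 1 that fell, Serpine2, against 12.6% and 17.6%. Serpine2, a protease inhibitor of thrombin and plasminogen activators, stood at 66.1 ± 7.46 FPKM in wild type brain and 17.9 ± 14.1 FPKM in wild type tumour (-2.08, SE 0.49, adjusted p = 0.014), and at 116 ± 45.1 and 30.5 ± 3.51 FPKM in knockout (-1.84, SE 0.55, adjusted p = 0.065), and it fell in the mean of both genotypes (-1.96, adjusted p = 0.0027). The wild type call was also lost with upper quartile scaling (-1.94, adjusted p = 0.064). With wild type tumour replicate 2 left out the knockout difference was unchanged, its SE was 0.45, and it was past the threshold (adjusted p = 0.028). No tumour library reached the lowest brain library, which was so for 12.3% of all tested genes. Plau, the urokinase activator, stood at 0.526 to 13.6 FPKM in tumour and 0 to 1.73 FPKM in brain, a 13.2-fold ratio of means, and had log2 differences of 2.36 (adjusted p = 0.056) in wild type, 2.21 (adjusted p = 0.15) in knockout and 2.29 (adjusted p = 0.014) in their mean. The call in the mean was lost without knockout tumour replicate 1 (2.05, adjusted p = 0.070), and the wild type difference passed at 3.28 (adjusted p = 0.0054) without wild type tumour replicate 3. Anxa2, a plasminogen-binding protein of the cell surface, had 1.06 (adjusted p = 0.10) and 1.25 (adjusted p = 0.14), and it rose in the mean (1.15, adjusted p = 0.019), a call lost without either knockout tumour library (adjusted p = 0.075 and 0.055). Plgrkt, a plasminogen receptor, had -2.74 (adjusted p = 0.061), or -1.84 (adjusted p = 0.17) without wild type tumour replicate 2, and 0.94 (adjusted p = 0.63). With that library left out 2 of the 10 fell in wild type and 1 in knockout, and 3 rose and 2 fell in the mean. The list median was -0.13 in wild type and 1.09 in knockout, beside -0.26 and -0.18 over all genes.

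**Figure D4:**
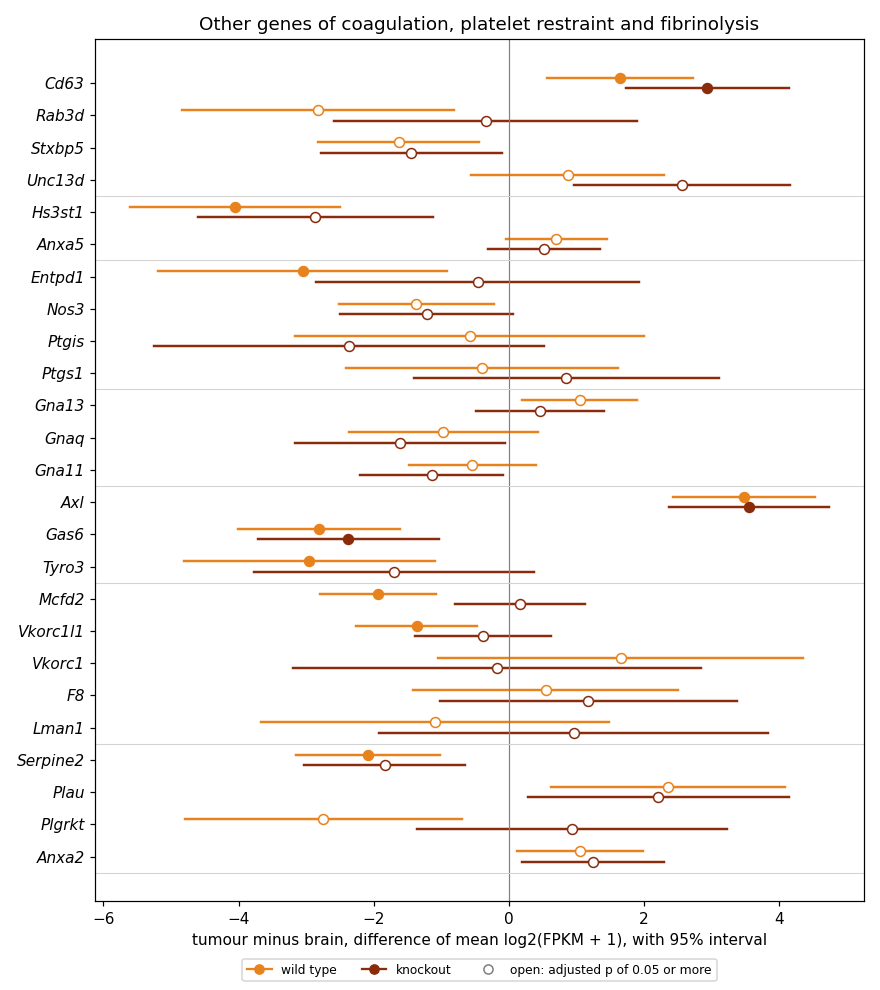
Tumour minus brain difference of mean log2(FPKM + 1), with its 95% interval, for 25 partner genes of the 7 lists in wild type and knockout mice, with filled points where the limma adjusted p was under 0.05 and thin lines between the lists. Axl and Cd63 have filled points to the right of 0, and Gas6 to the left, in both genotypes, and Hs3st1 has the lowest value, at -4.05 in wild type.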

How the data were processed

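The values are FPKM as the authors deposited them, 1 for each gene of a library. The submitters' processing notes name TopHat2 2.1.1, Cufflinks 2.2.1 and build GRCm38. The gene annotation and the use of strand were not stated in any label or file header read here. Each library listed 46073 entries, and the 482 entries of 213 repeated symbols were summed. Between 0.803% and 3.47% of low genes lay on the most frequent ratio of a library pair (tolerance 0.1%, 28 pairs), so whole reads were not recovered and depth is unknown. Genes with at least 1 FPKM in at least 2 libraries were tested as log2(FPKM + 1) with limma 3.58.1 in R 4.3.3 (lmFit, contrasts.fit, eBayes with a variance trend), all 4 groups in 1 fit with 7 residual degrees of freedom, two-sided, with an adjusted p under 0.05 as threshold over 7 contrasts. The script was tested on simulated data. Replicates are separate mouse samples, numbered in accession order, so p-values measure the spread between them. The haemostasis genes and lists were chosen with earlier results of these data known. Partner genes were named by rule: in each list, the 3 smallest p in each genotype's tumour contrast among genes with a mean of at least 5 FPKM in 1 group. For each haemostasis gene the 3 genes with the highest correlation were taken. Alternatives covered the pseudocount, filter, scaling, library weights, samples fitted, repeated symbols and each library left out.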

Additional observations from a re-analysis of the deposited data

How the results depend on the processing

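Depth is unknown, groups hold 2 or 3 libraries, and genes under a few FPKM are often listed at 0, which limits all 8 genes and most of all F2r. Thbd in tumour minus brain kept its direction under all alternatives run, in both genotypes and in their mean. No paired analysis was possible because the replicate numbers are in accession order and pair no samples. The cause of the changes listed here was not tested, except that fits to fewer libraries estimate the spread from fewer samples. Leaving out a wild type library also leaves each knockout difference of tumour and brain unchanged, and alters its SE and adjusted p through the shared spread.

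The number of the 8 genes that passed in tumour minus brain of wild type was 1, and 2 with quantile normalization, 0 with only the groups compared and 0 without wild type tumour replicates 2 and 3. In knockout it was 0, and 1 with quantile normalization, 2 with library weights, 1 without wild type tumour replicates 2 and 3, and from 0 to 1 with 1 library left out. In the mean of both genotypes it was 1, and 2 with the filter of 5 FPKM, 3 with upper quartile scaling, 3 with quantile normalization, 3 with library weights, and from 1 to 3 with 1 library left out. It stayed at 0 for all genotype comparisons in every alternative run.

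Over all genes, 3024 passed in tumour minus brain of wild type, and 1927 with upper quartile scaling, 614 with only the groups compared, 4937 with library weights, and from 1817 to 3887 with 1 library left out. In knockout 1105 passed, and 710 with a pseudocount of 0.1, 1822 with quantile normalization, 2803 with only the groups compared, 4126 with library weights, 2756 without wild type tumour replicates 2 and 3, and from 147 to 2006 with 1 library left out. In the mean of both genotypes 4713 passed, and from 2574 to 5177 with 1 library left out. In knockout minus wild type of tumour 3 passed, and 14 with no filter, 1 with the filter of 5 FPKM, 1 with quantile normalization, 0 with only the groups compared, 62 with library weights, 19 without wild type tumour replicates 2 and 3, and from 0 to 29 with 1 library left out. In brain 1 passed, and 0 with a pseudocount of 0.1, with the filter of 5 FPKM, with only the groups compared and without those replicates, and from 0 to 4 with 1 library left out. In the mean of both tissues 1 passed, and 0 with no filter, 0 with quantile normalization, 13 with library weights, 8 without those replicates, and from 0 to 17 with 1 library left out. For the difference of the genotype effects 1 passed, and 0 with no filter, 0 with quantile normalization, 4 with library weights, 8 without those replicates, and from 0 to 13 with 1 library left out.

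The changes that reversed direction were all of genes that had not passed. With 1 library left out, for tumour minus brain in wild type, the ranges were Lman1 from -2.29 to 0.72, Plat from -1.77 to 0.19, Procr from -0.19 to 2.099, Ptgis from -1.82 to 0.27, Ptgs1 from -1.47 to 0.45, Tfpi from -1.59 to 0.049 and Vwf from -0.83 to 0.40. For tumour minus brain in knockout, the ranges were F2r from -0.35 to 0.49, Mcfd2 from -0.064 to 0.35, Plat from -0.11 to 0.42, Rab3d from -0.74 to 0.17 and Tfpi from -0.76 to 0.81. For tumour minus brain in the mean of both genotypes, the ranges were Lman1 from -0.66 to 0.84, Plat from -0.79 to 0.19, Ptgs1 from -0.31 to 0.65 and Tfpi from -0.89 to 0.034. For knockout minus wild type in tumour, the ranges were F3 from -0.17 to 0.60, Pros1 from -0.15 to 0.95, Thbd from -0.58 to 1.49 and Vwf from -0.91 to 0.32. For knockout minus wild type in brain, the ranges were F2r from -0.78 to 0.063, Plat from -0.29 to 0.90, Procr from -1.76 to 0.53, Tfpi from -0.72 to 0.86, Thbd from -0.41 to 0.25 and Vwf from -0.083 to 0.69. With library weights, Lman1 in tumour minus brain of wild type was 0.75, in the genotype mean Plat 0.015 and Lman1 0.80, and in knockout minus wild type of tumour Vwf was 0.11, Thbd -0.044 and F3 -0.13. Vwf in tumour minus brain of wild type was 0.050 with quantile normalization and 0.048 with upper quartile scaling, which also gave 0.028 for Vkorc1 in tumour minus brain of knockout and 0.090 for Thbd in knockout minus wild type of brain. Lman1 in the genotype mean was 0.23 with upper quartile scaling and 0.31 with quantile normalization. Without wild type tumour replicates 2 and 3 together, tumour minus brain in wild type was 0.11 for Tfpi, 0.040 for Plat and 1.32 for Lman1, the genotype mean was 0.065 for Tfpi, 0.11 for Plat and 1.14 for Lman1, and knockout minus wild type in tumour was 0.21 for Vwf, -0.14 for Thbd, -0.20 for Procr, -0.32 for F3 and -0.011 for Tfpi. Relative to the endothelial markers, a pseudocount of 0.1 gave tumour minus brain shifts of -2.40 for Thbd and -0.10 for F2r in wild type and 4.83 for Procr and 2.56 for Pros1 in knockout. Their values without wild type tumour replicate 2 were an alternative chosen after seeing the data.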
